A study of Homo sapiens with 6 samples.

Results

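Interferon-stimulated effector genes were measured in H526 cells, an established human small cell lung cancer (SCLC) line, before and after the cells had acquired resistance to onvansertib, an inhibitor of polo-like kinase 1 (PLK1). The set was a list of 60 genes chosen by symbol with earlier results of these data known. All 60 were found among the 62710 genes analysed. RNA-seq covered parental and resistant cells with 3 libraries each. The resistant cells had first been grown in 10 nM onvansertib, and the dose was raised each time growth recovered until, after a year, they grew in 75 nM. Parental cells had no onvansertib step in the labels, and both groups shared the same serum-containing RPMI-1640 medium. No interferon was named in the treatment of either group. RNA was harvested at separate times for the replicates of 1 parental and 1 resistant culture line, so p-values measure the spread between harvests and not between independently derived resistant lines. Whether the resistant cells were a clone or a pool was not stated, and the presence of drug, the selection and the long culture cannot be told apart.

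Type I, II and III interferons bind cell surface receptors that activate the Janus kinases JAK1, JAK2 and TYK2. The kinases phosphorylate transcription factors that enter the nucleus and bind the interferon-stimulated response element (ISRE) or the gamma-activated site (GAS) in the promoters of target genes. The products of those targets degrade or sequester viral RNA, block virus entry, attach the ubiquitin-like protein ISG15 to other proteins and prepare peptides for presentation to T cells. SCLC is known for low antigen presentation, and the basal level of these genes differs widely between lines.

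The deposited values were read counts estimated by the authors with RSEM and normalized with DESeq2, called normalized values here. Not all low values were whole multiples of 1 read, so the value of 1 read was taken as the most common one in each library. It was an estimated 0.89 to 1.07 of normalized value, depending on the library. That put depth at an estimated 25779906 to 28510957 reads in parental libraries and 22393264 to 23252118 in resistant libraries. A value of 3 reads, the limit that a count of 0 allows, averaged 2.83 in parental and 3.16 in resistant libraries, and it covers counting error only. *POU2F3*, the factor that defines the tuft cell-like subtype of SCLC, stood at 25809 ± 1178 (SD, n = 3) in parental and 27273 ± 535 in resistant libraries and was not called. *YAP1*, which marks another subtype, was higher in resistant cells, at 48.9 ± 6.86 and 111 ± 16.1 (log2 fold change 1.17, adjusted p = 0.00236), and *NEUROD1* was too low to test. Of 6 immune cell markers, *CD3E* and *MS4A1* were at 0 in every library, and the sum of the 6 was 21.8 to 23.5 in parental and 15.2 to 32.6 in resistant libraries. The sum of 5 fibroblast markers was 129.6 to 178 in parental and 379 to 615 in resistant libraries, mostly *COL1A1* and *COL1A2*, both called higher. The other fibroblast markers were too low to test. *DCN* was at or below 3 reads in all 6 libraries, *LUM* averaged 6.27 in parental and 4.74 in resistant libraries, and *PDGFRB* 4.10 and 13.6. The sum of 3 endothelial markers was 244 to 339 and 452 to 491, almost all of it *VWF*, which was called higher. *CDH5* was at 0 and *PECAM1* at or below 3 reads in all 6 libraries. The part of such shifts in the results below was not tested.

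Of the 60 genes, 41 had a mean normalized value of at least 10 over the 6 libraries and were tested with limma on log2(value + 1), with p-values adjusted by the Benjamini-Hochberg method over all 16347 genes that passed the same filter. At an adjusted p under 0.05, 25 were higher in resistant cells, 2 were lower and 14 did not pass. Across all genes tested, 17.8% were called higher and 19.8% lower. The median log2 fold change of the 41 genes was 0.90, with a range of -0.72 to 2.88, beside a median of -0.00 over all genes tested. Of the 25, 15 rose by more than 1 on the log2 scale, a size and call reached by 6.32% of all genes. In 28 of the 41 genes the lowest resistant library lay above the highest parental one, which held for 24.0% of all genes. These counts cover the genes that passed the filter, not the whole list, and 7 of the 41 had a parental mean under 10 and passed through their resistant level. Since the list was chosen with earlier results of these data known, the shares over all genes are given as context and do not test the list.

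**Figure D1:**
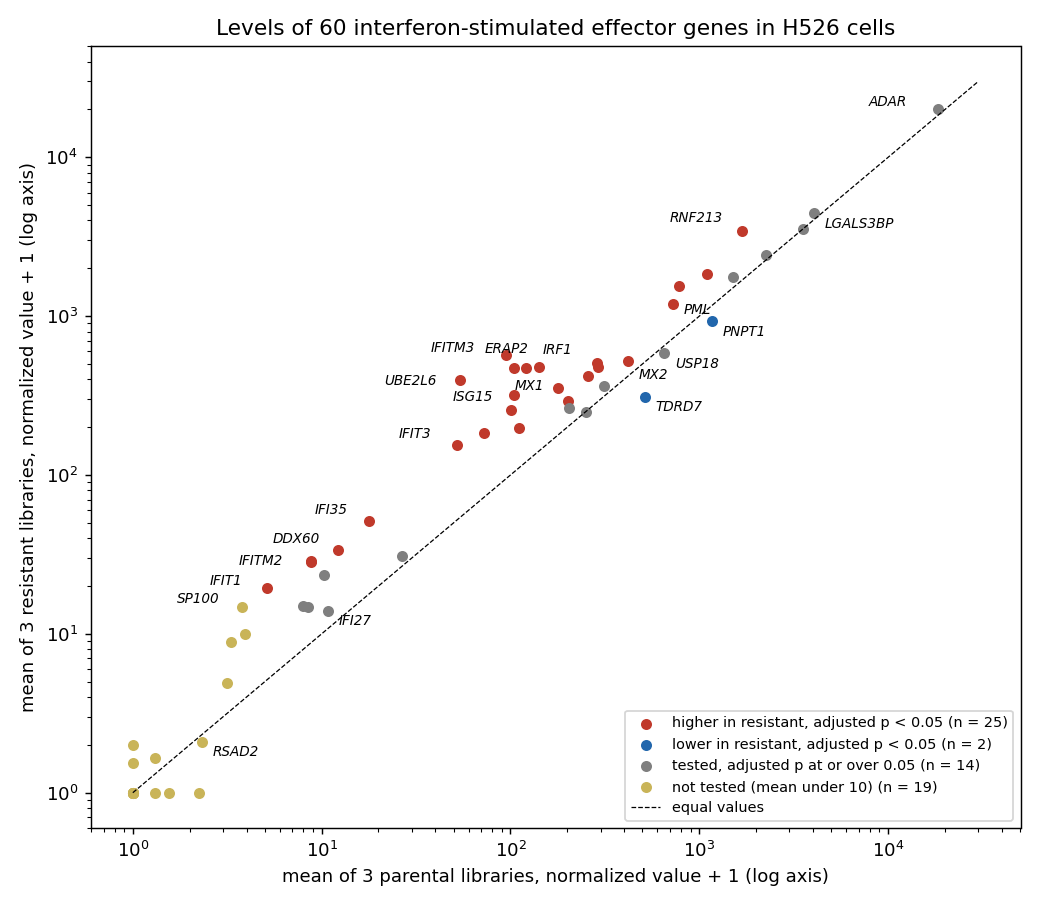
Each point is 1 of the 60 genes, with the mean normalized value + 1 of the 3 parental libraries on the horizontal axis and of the 3 resistant libraries on the vertical axis, both on log scales, and color for the limma call. The 25 genes called higher lie above the dashed line of equal values, while genes at the upper end (*ADAR*, *LGALS3BP*) lie near it and a group of untested genes lies at the origin in both groups.

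The genes were separated by their level in parental cells. Expressed genes, with a parental mean of at least 10, numbered 34, and of these 22 rose, 2 fell and 10 did not pass the test. A further 13 were low but above the limit of 3 reads in at least 1 parental library. Of those, 7 were tested and 3 rose, namely *IFIT1*, *IFIT2* and *IFITM2*. All 7 passed the filter only through their resistant level, which favored a rise, so this count is not compared with that of expressed genes. The last 13 were at or below the limit in all parental libraries, and all 13 remained there in every resistant library. No gene that was at the limit in parental cells reached the level needed for a test.

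Of the 13 genes at the limit, 8 were listed at 0 in all 6 libraries. They were *OAS2* and *OASL* of the oligoadenylate synthetase family, *GBP4*, the DNA sensor *IFI16*, *TRIM22*, *BST2* (tetherin), the chemokine *CXCL10* and *XAF1*. The other 5, *IFITM1*, *GBP2*, *IFI44*, *IFI44L* and *SAMD9L*, had no library above 3 reads. *IFITM1* was at 0, 0 and 0 in parental libraries and 0, 0.72 and 2.25 in resistant ones, which cannot be told from 0. Another 6 genes were above the limit in some library but had a mean under 10 and were not tested. Among them *SP100*, a nuclear body protein, was at 2.31, 0.52 and 5.56 in parental and 11.8, 8.57 and 21.0 in resistant libraries, with no overlap. *CMPK2*, a mitochondrial nucleotide kinase gene, was at 5.03, 0.68 and 3.14 against 13.1, 5.37 and 8.53, again with no overlap. The values of *GBP1*, *GBP3*, *RSAD2* (viperin) and *RTP4* overlapped between the groups. *GBP3* was at 0.87, 6.02 and 0 against 3.68, 7.58 and 12.3, and *RTP4*, a chaperone gene, at 3.56, 0.97 and 1.96 against 4.18, 3.12 and 4.30. *GBP1* and *RSAD2* were above the limit only in parental replicate 2, at 3.74 and 3.94.

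To show what the genes share in sequence, their promoters were taken from RefSeq on GRCh38.p14, as 250 bases before to 50 bases after the transcription start. Of the 60 genes, 50 matched. The ISRE was searched as GAAANNGAAA, or TTTCNNTTTC on the other strand, and the GAS as TTCNNNGAA, which reads alike on both strands. An ISRE was present in 30 of the 50 promoters (60%), beside 3.65% of all 27305 promoters in the table, and a GAS in 12 (24%), beside 7.88%. Both elements were found in 7. Windows of 60 bases upstream of the start are shown for genes that rose and genes that stayed at the limit, since both kinds carried the element. Capitals mark ISRE letters, and each window is written 5′ to 3′ on the strand of its gene. The first 4 genes rose in resistant cells and the last 2 were at or below the limit in all 6 libraries.
*ISG15* (chr1:1013365-1013424, plus strand): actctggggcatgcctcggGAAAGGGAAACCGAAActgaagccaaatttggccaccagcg
*HERC5* (chr4:88457020-88457079, plus strand): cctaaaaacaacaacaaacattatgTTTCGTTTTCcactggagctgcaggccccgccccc
*IFIT1* (chr10:89392495-89392554, plus strand): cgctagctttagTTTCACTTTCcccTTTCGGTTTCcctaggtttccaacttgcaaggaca
*IFITM3* (chr11:320861-320920, minus strand): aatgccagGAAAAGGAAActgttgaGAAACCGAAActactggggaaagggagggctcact
*BST2* (chr19:17405720-17405779, minus strand): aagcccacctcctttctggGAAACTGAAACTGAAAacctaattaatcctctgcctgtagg
*IFI44L* (chr1:78620350-78620409, plus strand): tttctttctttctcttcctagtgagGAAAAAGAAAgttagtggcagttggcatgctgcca

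The bases between the ISRE nearest the start and the start itself numbered 97 for *ISG15*, 64 for *HERC5*, 93 for *IFIT1*, 25 for *IFITM3*, 114 for *BST2* and 63 for *IFI44L*. In *ISG15* and *BST2* the capitals hold 2 matches that overlap. The element was found in 12 of 20 promoters of genes that rose, in 9 of 13 of tested genes that did not pass, in 0 of 2 of genes that fell, and in 6 of 9 of genes at the limit in all 6 libraries. Tested genes with an ISRE numbered 21 and had a median log2 fold change of 0.74, with 12 higher and 0 lower. Tested genes without one numbered 14 and had a median of 1.10, with 8 higher and 2 lower. A match in this window is a description of sequence only.

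The genes of ISG15 conjugation included the largest increase of the list. Of the 5 genes, 4 rose and *USP18* did not pass. *UBE2L6* (ENSG00000156587, chr11:57551656-57568284 on GRCh38), which encodes the enzyme that carries activated ISG15 to its ligases, was at 52.9, 55.3 and 50.2 in parental libraries and 385, 388 and 413 in resistant libraries. The groups were far apart and each was tight, with means of 52.8 ± 2.56 and 395 ± 15.1 (SD, n = 3) and a log2 fold change of 2.88 (95% interval 2.54 to 3.22, adjusted p = 9.84e-07). *ISG15* itself (ENSG00000187608, chr1:1001138-1014540) was at 108, 102 and 101 in parental libraries and 312, 309 and 329 in resistant libraries. That was a log2 fold change of 1.60 (1.29 to 1.91, adjusted p = 1.77e-05), again without overlap. *HERC6*, a ligase gene next to *HERC5* on chromosome 4, was at 85.8, 71.9 and 55.8 against 173, 220.4 and 158, a log2 fold change of 1.36 (SE 0.22, adjusted p = 0.00084). *HERC5*, the main ligase that attaches ISG15 to new proteins, rose by less, from 256 ± 42 to 418 ± 25 (log2 fold change 0.72, adjusted p = 0.00269). *USP18*, the protease that removes ISG15 and also restrains receptor signaling, was at 649 ± 44.5 and 581 ± 55.6 (log2 fold change -0.16, 95% interval -0.39 to 0.07, adjusted p = 0.257). Its near-identical copy *USP41* stood at 3.50 and 1.75, and reads of the pair can be divided between them by the counting.

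**Figure D2:**
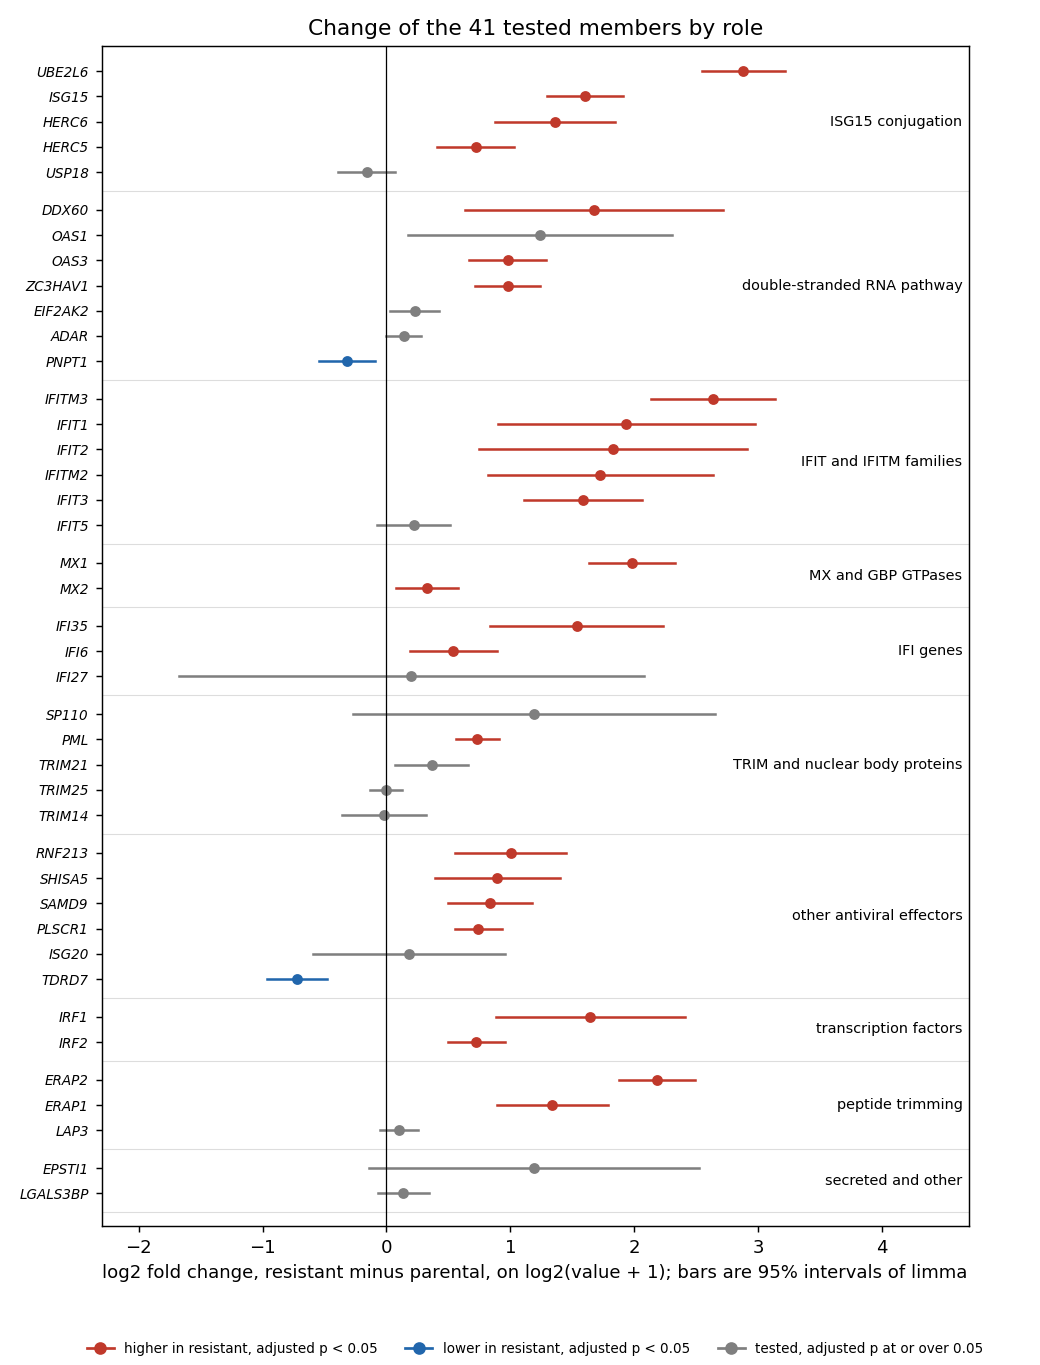
Points are log2 fold changes (resistant minus parental, on the log2(value + 1) scale) of the 41 tested genes, bars are 95% intervals from limma, and genes are grouped by role. *UBE2L6* at 2.88 and *IFITM3* at 2.64 lie farthest to the right, and *TDRD7* at -0.72 and *PNPT1* at -0.32 are the 2 genes called lower.

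Of 9 genes that act on double-stranded or viral RNA, 7 were tested, of which 3 rose and 1 fell. *ZC3HAV1*, the zinc finger antiviral protein that targets CpG-rich RNA for decay, was at 848, 798 and 693 in parental libraries and 1737, 1581 and 1305 in resistant libraries. All resistant values were above all parental values (log2 fold change 0.98, SE 0.12, adjusted p = 0.00015). *OAS3*, which makes the oligoadenylates that switch on RNase L, was at 182, 192 and 159 against 337, 391 and 325 (log2 fold change 0.98, SE 0.14, adjusted p = 0.00042). *OAS1* was at 9.23 ± 5.10 and 22.5 ± 9.13 and did not pass (adjusted p = 0.0648), though it did without parental replicate 2 (adjusted p = 0.0295) and with the median change of neighboring genes subtracted (adjusted p = 0.0223). *DDX60*, a helicase gene, was at 5.11, 8.24 and 20.1 in parental libraries and 35.4, 30.7 and 32.4 in resistant libraries. Its log2 fold change of 1.67 (SE 0.47, adjusted p = 0.0177) lost its call without parental replicate 1 (adjusted p = 0.0509) or resistant replicate 7 (adjusted p = 0.0550). *PNPT1* (ENSG00000138035, chr2:55634061-55693863), which encodes the mitochondrial polynucleotide phosphorylase, was at 1293, 1046 and 1144 in parental and 1018, 854 and 914 in resistant libraries. The groups were separated by little, and the fall of 0.32 on the log2 scale (SE 0.10, adjusted p = 0.0325) did not pass without parental replicate 1 or 3 or without resistant replicate 8 or 9, where adjusted p ranged up to 0.115, nor in limma without an intensity trend (adjusted p = 0.0842).

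The kinase *EIF2AK2* (PKR), which stops translation on sensing double-stranded RNA, and *ADAR*, the deaminase that edits such RNA and keeps it from being sensed, had the highest values of this role among those not called. *EIF2AK2* was at 1503 ± 169.5 and 1757 ± 64.7 (log2 fold change 0.23, 95% interval 0.03 to 0.43, adjusted p = 0.0662). It overlaps *GPATCH11* on the opposite strand, which was at 355 in parental and 334 in resistant libraries. *ADAR* was at 18271 ± 988 and 20090.0 ± 825 (log2 fold change 0.14, 95% interval -0.00 to 0.28, adjusted p = 0.11). Both passed under quantile normalization, with *ADAR* at 0.26 and *EIF2AK2* at 0.28, and *EIF2AK2* also without parental replicate 1 (adjusted p = 0.0127) and with the local median subtracted (0.23, adjusted p = 0.0364). *ADAR* made up 46.1% of the summed normalized values of the 60 genes in parental cells and 40.8% in resistant cells. The sum of all 60 was 39619 ± 537 in parental and 49229 ± 1294 in resistant libraries, a ratio of 1.24, and without *ADAR* it ran from 20720 to 22035 in parental and from 28689 to 29741 in resistant libraries.

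Of 7 IFIT and IFITM genes, 6 were tested and 5 rose, with a median log2 fold change of 1.78. Of the 6, *IFIT1*, *IFIT2* and *IFITM2* had a parental mean under 10 and passed the filter through their resistant level. For these genes the filter favored a rise, so the count and the median are not compared with other roles. IFIT proteins bind viral RNA with incomplete caps, and IFITM proteins sit in membranes and hinder the fusion of virus with the cell. *IFITM3* (ENSG00000142089, chr11:319676-329475) was at 109, 113 and 59.3 in parental libraries and 557, 566 and 578 in resistant libraries. The lowest resistant library was several times the highest parental one, and the log2 fold change was 2.64 (95% interval 2.14 to 3.14, adjusted p = 1.66e-05). *IFITM2* was at 5.47, 11 and 6.93 against 34.8, 23.6 and 24.4, a log2 fold change of 1.73 (SE 0.41, adjusted p = 0.00781). The IFITM genes are close copies of each other, so the division of reads among *IFITM1*, *IFITM2* and *IFITM3* is uncertain. *IFIT3* was at 62.9, 43.2 and 46.7 in parental libraries and 159, 135 and 166 in resistant libraries, a log2 fold change of 1.58 (SE 0.21, adjusted p = 0.00031). *IFIT1*, from 4.15 ± 1.63 to 18.3 ± 3.50 (adjusted p = 0.00874), and *IFIT2*, from 7.75 ± 4.60 to 27.3 ± 5.11 (adjusted p = 0.0139), rose from a low level, and *IFIT2* lost its call without resistant replicate 7 (adjusted p = 0.0525). *IFIT5* was at 311 ± 27.9 and 363 ± 43.3 (log2 fold change 0.22, 95% interval -0.07 to 0.51) and did not pass. *IFIT2* and *IFIT3* overlap *LIPA* on the opposite strand, which stood at 531 and 509, and the sources used here do not state whether the counting used strand.

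MX proteins are dynamin-like GTPases that trap viral nucleocapsids. Of 6 MX and guanylate-binding protein genes, both MX genes were tested and both rose, while the 4 GBP genes were too low to test. *MX1* (ENSG00000157601, chr21:41420020-41470071) was at 104, 144 and 109 in parental libraries and 430.5, 494 and 485 in resistant libraries. Its log2 fold change was 1.98 (95% interval 1.63 to 2.33, adjusted p = 1.08e-05). *MX2*, directly beside it at chr21:41361999-41409393, was at 389.6, 446 and 412 against 468, 556 and 544. The groups did not overlap but lay close, at a log2 fold change of 0.33 (95% interval 0.08 to 0.58, adjusted p = 0.0424). The call of *MX2* was lost under TMM scaling, without the filter on low values, without the trend and when parental replicate 1 or 3 or resistant replicate 8 or 9 was left out (adjusted p up to 0.137). With the median change of neighboring genes subtracted, *MX2* turned to lower in resistant cells (-0.41, adjusted p = 0.0199).

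Of 6 IFI genes, 3 were tested and 2 rose. *IFI35* was at 15.4, 13.4 and 21.5 in parental libraries and 58.0, 41.6 and 50.6 in resistant libraries, a log2 fold change of 1.54 (SE 0.31, adjusted p = 0.00359). *IFI6*, a mitochondrial and endoplasmic reticulum protein gene, was at 182, 234 and 182 against 253, 289.7 and 327 (log2 fold change 0.54, SE 0.16, adjusted p = 0.0218), with no overlap. It did not pass without parental replicate 1 or 3 or resistant replicate 8 or 9, where the adjusted p reached 0.0832, nor with the median change of neighboring genes subtracted (0.46, adjusted p = 0.0603). *IFI27* was at 5.27, 20.1 and 4.11 in parental and 1.69, 16.2 and 21.2 in resistant libraries, so that libraries of both groups were spread over the same range and no direction could be read (log2 fold change 0.20, 95% interval -1.67 to 2.08).

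Many but not all TRIM proteins are ubiquitin ligases, and PML with its SP partners forms nuclear bodies. Of these 7 genes, 5 were tested and only *PML* passed. *PML* was at 734, 742 and 687 in parental libraries and 1193, 1229.7 and 1175 in resistant libraries, tight within each group (log2 fold change 0.73, SE 0.08, adjusted p = 7.32e-05). *TRIM21*, the cytosolic antibody receptor, was at 213, 186 and 213 against 252, 255 and 281. Its groups did not overlap, but the log2 fold change of 0.36 (95% interval 0.07 to 0.66) did not pass (adjusted p = 0.0543; 0.0332 without the trend). *SP110* was at 2.24, 16.9 and 3.32 against 16.2, 14.8 and 9.97, with 1 parental library above all resistant ones. *TRIM25*, a ligase of the RIG-I pathway, was at 3523 ± 31.3 and 3517 ± 111 (95% interval -0.13 to 0.13 on the log2 scale). It overlaps *DGKE* on the opposite strand, which was at 1095 in parental and 1273 in resistant libraries. *TRIM14* was at 251 ± 36.9 and 247 ± 27.5 and overlaps *NANS* on the opposite strand, which was at 898 and 409.

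Of 11 further antiviral genes, 6 were tested, of which 4 rose and 1 fell. *PLSCR1*, a membrane protein gene of the scramblase family, was at 1068, 1088 and 1120.3 in parental libraries and 1882, 1633 and 1983 in resistant libraries (log2 fold change 0.74, SE 0.09, adjusted p = 0.00012). *SAMD9*, which limits poxvirus replication, was at 305, 326 and 222 against 467, 536 and 504 (log2 fold change 0.84, SE 0.15, adjusted p = 0.00182). *SAMD9L*, its neighbor and closest relative, was at the limit in all 6 libraries. *TDRD7* (ENSG00000196116, chr9:97412096-97496125), a Tudor domain protein gene, went the other way, at 525.8, 495 and 517 in parental libraries and 337, 304 and 289.6 in resistant libraries. It fell by 0.72 on the log2 scale (95% interval -0.97 to -0.48, adjusted p = 0.00058), with no overlap, but the call was lost with the median change of neighboring genes subtracted (-0.08, adjusted p = 0.599). *RNF213*, a large ubiquitin ligase, rose from 1678 ± 363 to 3409.8 ± 1013 (adjusted p = 0.00317) with wide spread in both groups, and *SHISA5* rose from 109 ± 33.4 to 198 ± 4.84 (adjusted p = 0.0107). The exonuclease gene *ISG20* was at 25.7 ± 4.60 and 30.0 ± 9.71 and did not pass.

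Both transcription factors of the list rose. *IRF1*, an activator of interferon target genes and of antigen presentation, was at 121, 177 and 124 in parental libraries and 224, 643 and 569.9 in resistant libraries. Resistant replicate 7 was well below the other two, and the SD of the resistant group was 223 at a mean of 479 (log2 fold change 1.65, SE 0.34, adjusted p = 0.00393). *IRF2*, which competes with IRF1 for the same sites, was at 300.4, 284 and 285 against 471, 476 and 492 (log2 fold change 0.73, SE 0.10, adjusted p = 0.00044), with both groups tight. The call of *IRF1* held in each fit that left out 1 library.

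Of 3 peptide-trimming genes, 2 rose. *ERAP2*, an aminopeptidase of the endoplasmic reticulum that shortens peptides for MHC class I, was at 113, 97.1 and 99.8 in parental libraries and 430.3, 502 and 485 in resistant libraries. The log2 fold change was 2.18 (95% interval 1.88 to 2.49, adjusted p = 3e-06), exceeded only by *UBE2L6* and *IFITM3*. *ERAP1*, its neighbor and partner enzyme, was at 95.8, 111 and 90.1 against 273, 307 and 189.8 (log2 fold change 1.34, SE 0.20, adjusted p = 0.00059). *ERAP1* overlaps *CAST* on the opposite strand, which was at 858 in parental and 1399 in resistant libraries, so that with unstranded counting reads of the 2 genes could not be told apart in the shared stretch. *LAP3*, a cytosolic aminopeptidase gene, was at 2337, 2204 and 2194 against 2536, 2264 and 2435 and did not pass (log2 fold change 0.10, 95% interval -0.05 to 0.26). Of the secreted and other genes, *LGALS3BP*, a secreted glycoprotein gene, was at 3703, 4397 and 3994 against 4293, 4011 and 5006, and *EPSTI1* at 14.4, 2.42 and 4.16 against 14.3, 16.7 and 10.9, both with overlap and neither past the threshold.

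Levels were compared between genes as normalized value per kilobase of the longest annotated transcript of each gene. The levels and ranks depend on that choice of length, since the transcripts present in these cells may be shorter. *ADAR* (2513 per kilobase in parental cells), *LGALS3BP* (1831) and *LAP3* (1016) held the top 3 ranks in both groups, and none of the 3 was called. Several genes that rose stood higher in this order in resistant cells. *IFITM3* went from 90.0 to 543 per kilobase and from rank 16 to 6, *UBE2L6* from 33.6 to 251 and from rank 24 to 9, and *ISG15* from 132 to 402 and from rank 11 to 7. *TDRD7* went from 139 to 84.2 and from rank 10 to 23. These ranks rest on group means, and neighbors in the order often differ by less than the spread between libraries.

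Many of the genes lie in clusters of related copies, and members of 1 cluster did not always share a call. Both genes rose in the MX, HERC and ERAP pairs, and the GBP genes were all too low to test. The 4 IFIT genes span 138 kilobases on chromosome 10, where *IFIT2*, *IFIT3* and *IFIT1* rose and *IFIT5* did not pass. The 3 IFITM genes span 25.8 kilobases on chromosome 11, with *IFITM2* and *IFITM3* higher and *IFITM1* between them at the limit. The 3 OAS genes span 106 kilobases on chromosome 12, with *OAS3* higher and *OAS2* at 0. *OAS1* did not pass, though its resistant libraries all lay above its parental ones. To compare neighbors within libraries, the log2 ratio of 1 gene to the next was formed for 5 pairs. The ratio of *MX1* to *MX2* was -1.90 to -1.62 in parental and -0.17 to -0.12 in resistant libraries, a difference of 1.65 (SE 0.09). The ratio of *IFIT3* to *IFIT5* was higher by 1.36 (SE 0.21), that of *ERAP2* to *ERAP1* by 0.84 (SE 0.26) and that of *HERC6* to *HERC5* by 0.64 (SE 0.20), each without overlap. The ratio of *IFITM3* to *IFITM2* differed by 0.91 (SE 0.39) with overlap. In the exact two-sided permutation test, the 4 ratios without overlap had p = 0.1, the smallest value that 3 against 3 allows, or 0.125 adjusted over the 5 pairs, and the last had p = 0.2, so none could pass.

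**Figure D3:**
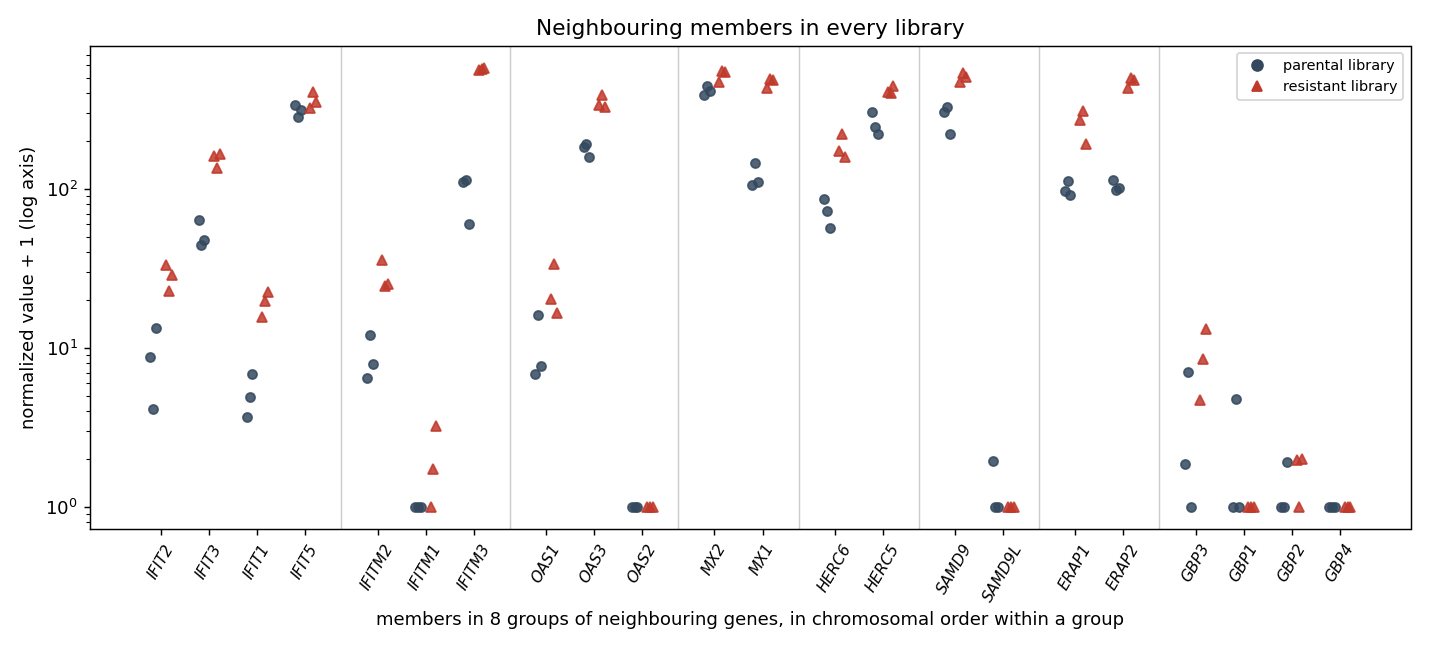
Each symbol is 1 library (circles parental, triangles resistant), with the normalized value + 1 on a log axis, for genes in 8 clusters given in chromosomal order. Genes at the limit (*IFITM1*, *OAS2*, *SAMD9L*, *GBP4*) lie beside genes whose 3 resistant libraries all lie above the 3 parental ones (*IFITM3*, *OAS3*, *SAMD9*).

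On some chromosomes neighboring genes differed in the same direction, so each gene was set beside the median log2 fold change of its 50 nearest tested genes. DNA copy number was not analysed here. For 29 of the 41 tested genes that median lay within 0.3 of 0 (-0.07 to 0.11), and of these 19 rose and 1 fell, at a median log2 fold change of 1.00. For the other 12 it lay beyond 0.3, and of these 6 rose and 1 fell. Over all genes tested, 17.8% were called higher and 19.8% lower. Shares within either kind of stretch were not computed, so the split is a description only. *MX1* and *MX2* lay in a stretch of chromosome 21 whose medians were 0.66 and 0.77. *MX1* was above its neighbors, whereas *MX2* was below them. *PML* at 0.73 lay in a stretch with a median of 0.40. *OAS3* and *ZC3HAV1*, both at 0.98, lay in stretches with medians of -0.42 and -0.32, and *SAMD9* at 0.84 in one of -0.33. *TDRD7* at -0.72 lay in a stretch of chromosome 9 with a median of -0.68. *TRIM14*, farther along the same chromosome, was at -0.02 in a stretch with a median of -0.87, and after local subtraction it was higher (0.88, adjusted p = 0.00241).

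**Figure D4:**
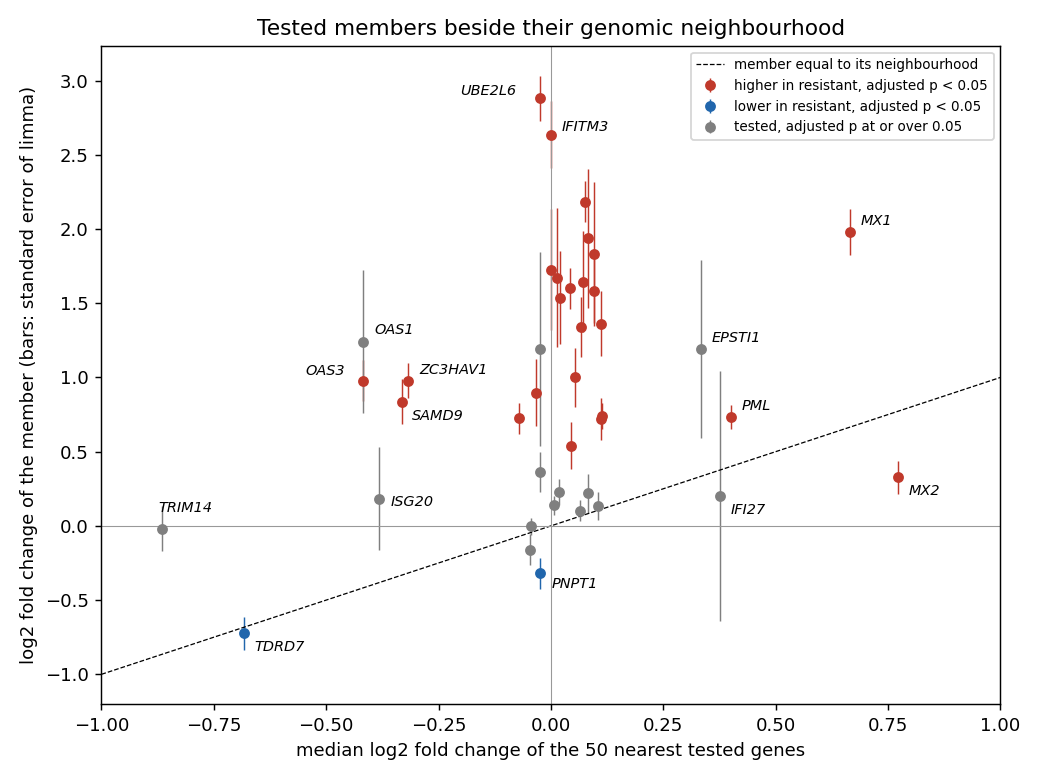
Each point is 1 of the 41 tested genes, with the median log2 fold change of its 50 nearest tested genes on the horizontal axis and its own log2 fold change on the vertical axis, bars being the standard error from limma. Points on the dashed line equal their neighborhood, as *TDRD7* nearly does, while *UBE2L6* and *IFITM3* lie at 2.88 and 2.64 above neighborhoods near 0 and *MX2* lies below the line.

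The genes that produce, receive and carry the interferon signal were described from a list of 38, of which 24 were tested. Of these, 10 rose and 1 fell, with a median log2 fold change of 0.28. The shares over all genes tested were 17.8% called higher and 19.8% called lower. They are context only, since this list too was chosen with earlier results of these data known. All 10 interferon ligand genes of the list, among them *IFNB1*, *IFNG* and *IFNL1*, were at or below the limit of 3 reads in all 6 libraries. Of 6 receptor genes, 4 rose. *IFNAR1*, a chain of the type I receptor, was at 1330.0, 1413 and 1384 in parental libraries and 3450.2, 3217 and 3282 in resistant libraries, a log2 fold change of 1.27 (SE 0.07, adjusted p = 9.23e-07). *IFNGR2*, a chain of the type II receptor, was at 1349, 1269.9 and 1301 against 2614, 2624 and 2775, a log2 fold change of 1.03 (SE 0.07, adjusted p = 3.41e-06). *IFNAR2* at 1.19 and *IL10RB* at 1.27 were the other 2. All 4 lie side by side on chromosome 21, where the median of the 50 nearest genes was 1.00 to 1.04. *IFNGR2* was close to that median, while *IFNAR1* and *IL10RB* each lay 0.24 above theirs and *IFNAR2* 0.19 above. *IFNGR1* on chromosome 6 (0.04) and *IFNLR1* on chromosome 1 (-0.06) did not pass.

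The factors that receptors act on showed smaller differences. *STAT2* (0.20, 95% interval -0.01 to 0.41) and *IRF9* (0.33, 95% interval -0.06 to 0.72) did not pass. Of the receptor kinases, *TYK2* rose from 1229 ± 132 to 1558 ± 143 (log2 fold change 0.34, adjusted p = 0.0201). *JAK1* (-0.07) and *JAK2* (0.04) did not pass. *IRF7*, the amplifier of type I interferon production, was at 196, 216 and 177 against 291, 309 and 299 (log2 fold change 0.61, SE 0.13, adjusted p = 0.00487). *IRF3*, the factor that first responds to RNA and DNA sensors, was at 1533, 1522 and 1655 against 1289, 1046 and 1149 and fell by 0.44 on the log2 scale (SE 0.09, adjusted p = 0.00372). Among feedback genes, *PIAS1* rose from 1669 ± 183 to 2247 ± 99.1 (0.43, adjusted p = 0.00339) and *PTPN2* from 612 ± 14.2 to 732 ± 15.8 (0.26, adjusted p = 0.0358). The RNA sensors *IFIH1* (MDA5) and *RIGI* both rose. *IFIH1* was at 29.8, 26.5 and 18.2 against 90.3, 76.7 and 77.3 (log2 fold change 1.70, SE 0.27, adjusted p = 0.00085), and *RIGI* at 2001, 1569 and 1487 against 3053, 2628 and 2623 (0.72, SE 0.11, adjusted p = 0.00072). With the local median subtracted, the number of pathway genes called higher went from 10 to 6.

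**Figure D5:**
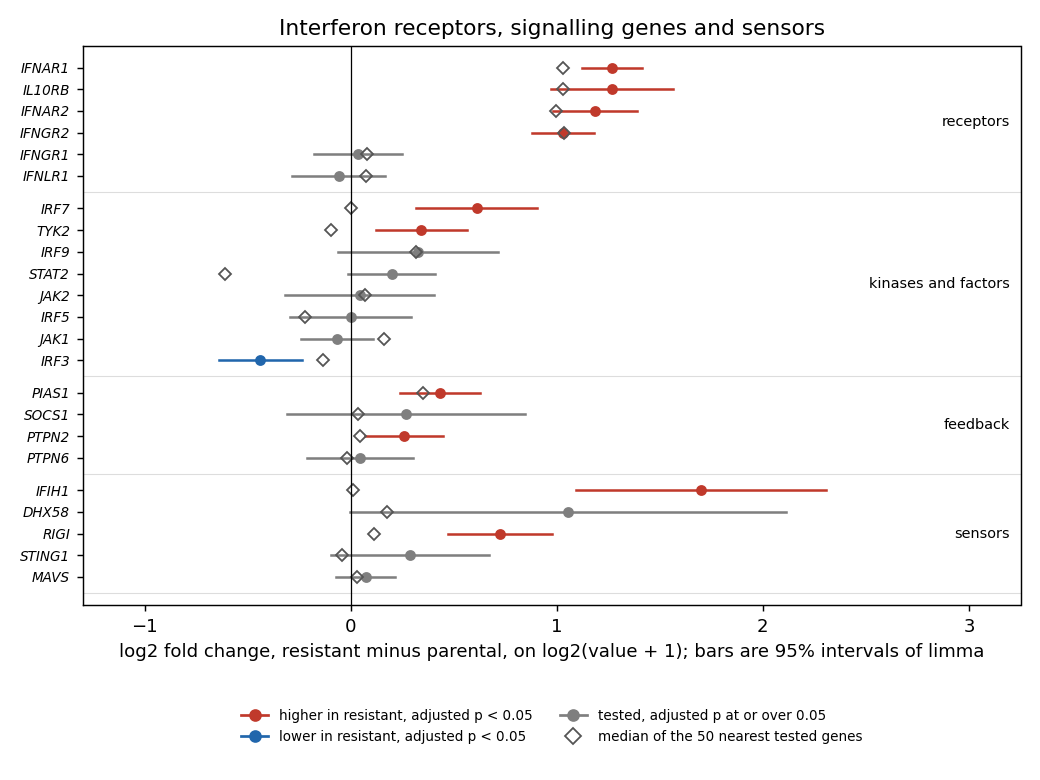
Filled points are log2 fold changes (resistant minus parental) of tested pathway genes (1 of the 24 is not shown) with 95% intervals from limma, and open diamonds are the medians of their 50 nearest tested genes. The 4 chromosome 21 receptor genes at 1.03 to 1.27 have diamonds at 1.00 to 1.04, whereas *IFIH1* at 1.70 and *RIGI* at 0.72 sit farther from theirs.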

How the data were processed

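RNA-seq was compared between 3 parental and 3 onvansertib-resistant libraries of H526 cells. The authors trimmed reads with Trimmomatic 0.38, quantified genes with RSEM 1.3.1 (STAR is named in the submitters' processing notes) on GRCh38 with Gencode v43, and deposited 1 table of signal values, read counts normalized with DESeq2 1.30.0. Libraries were made with a NEBNext Ultra RNA kit, and the counting strand is not given in the sources used here. Only 48.7% to 62.0% of low values were whole reads (within 0.05 of a read), so a count model was not used. The table held 62757 rows; 47 second copies of genes shared by the sex chromosomes were removed. Symbols and positions came from Gencode v44.

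Values were tested with limma 3.58.1 (R 4.3.3) with an intensity trend on log2(value + 1), two-sided, for genes with a mean of at least 10, which understates changes of low genes. The step was checked on simulated data. Estimated depth was 22393264 to 28510957 reads, taken from the most common value of 1 read in each library. The members, their roles and the pathway and marker lists were chosen with earlier results of these data known. Values of every library are printed for up to 3 tested genes a role with the smallest p and for each gene that fell, and pathway genes with per-library values are the 2 with the smallest p of a sublist. Other genes are given by mean ± SD. Genes named beyond this, and their levels, were chosen after their values were seen. Alternatives were 2 pseudocounts, 2 filters, TMM and quantile scaling, no trend, local median centring over 51 genes, and leaving out each library. Results for 2 listed genes are not reported here.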

Additional observations from a re-analysis of the deposited data

How the results depend on the processing

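Under 14 alternatives the number of genes called higher was 20 to 27 (25 as reported) and the median log2 fold change 0.73 to 0.94. The number tested also varied. The 20 came from a minimum mean of 50, where 31 genes were tested. The 27 came from quantile normalization with 41 tested, and without the filter 25 of 52 were called higher. Of the 25 higher calls, 21 held in each alternative in which the gene was tested, and the 4 that did not were *DDX60*, *IFI6*, *IFIT2* and *MX2*. Neither lower call held throughout: the number called lower was 1 without the trend and 1 to 2 when a library was left out, since *PNPT1* did not pass, and *TDRD7* did not pass after local median centring. Pathway genes called higher numbered 6 after local median centring and 8 to 10 when a library was left out. Sign changes were found for *MX2* after local centring (-0.41) and for 4 genes that were not called as reported. *TRIM25* was 0.037 under quantile normalization, 0.024 after local centring and -0.024 to 0.021 when a library was left out. *ISG20* was -0.036 under quantile normalization and -0.025 to 0.45 when a library was left out. *TRIM14* was 0.88 after local centring and -0.10 to 0.10 when a library was left out, and *IFI27* was -0.18 and -0.19 to 1.15. The cause was not tested. No paired analysis was possible because the labels do not say which parental and resistant libraries share a harvest: RNA of both groups was taken at separate times, but the groups carry different replicate numbers. At this depth, genes near 3 reads cannot be told from 0, and 3 libraries against 3 cannot pass an exact permutation test of a single gene. The read counts behind the values were not analysed here.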
